A study of Saccharomyces cerevisiae with 6 samples.

Results

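The PIR cell wall protein genes of budding yeast are described here across 3 groups of cells. They were taken by name from the table of transcript levels, as PIR1, PIR3, CIS3 and HSP150, and all 4 were found among its 6400 named entries. The data are poly(A) RNA-seq values from 6 libraries of Saccharomyces cerevisiae, of the laboratory strain given in the labels as w303. The titles mark every library as an arrest sample, and T1, T2 and T3 have 2 libraries each, replicates A and B. By the design text the populations differ in mean size, but the labels used here give no size, time or means of arrest, so the groups are compared by name. The arrest is shared by all 3 groups, and no culture without an arrest is among the libraries used here. Nothing in the labels says that replicates came from separate cultures, so p-values may measure technical spread alone.

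PIR stands for proteins with internal repeats. These proteins are secreted, carry O-linked mannose, are trimmed by the Kex2 protease and are bound covalently to the beta-1,3-glucan of the cell wall. Glutamines within the repeats take part in that bond, in contrast to most other wall mannoproteins, which reach the wall through a GPI anchor. Expression of PIR genes is known to respond to the cell wall integrity pathway, in which sensors at the plasma membrane act through Rho1 and Pkc1 on the MAP kinase Slt2 and the transcription factor Rlm1. PIR1 and PIR3 are also known as genes expressed at the M to G1 transition of the cell cycle, where the factor Swi5 acts. HSP150, also named PIR2, is known for induction by heat shock, oxidative stress and nitrogen limitation. CIS3, also named PIR4, encodes a mannose-bearing wall protein.

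The genes lie as 2 neighbouring pairs in the R64 genome. PIR1 (YKL164C, chromosome XI, 141794 to 142819, minus strand) and PIR3 (YKL163W, chromosome XI, 144401 to 145378, plus strand) point away from each other across 1581 bases. HSP150 (YJL159W, chromosome X, 120449 to 121690, plus strand) and CIS3 (YJL158C, chromosome X, 122265 to 122948, minus strand) point towards each other across 574 bases. A further family gene, PIR5 (YJL160C, chromosome X, 117962 to 118825, minus strand), lies on the other side of HSP150. The RefSeq annotation lists PIR3 and HSP150 as paralogs from the whole-genome duplication, and likewise PIR1 and PIR5.

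The repeats can be read in the coding DNA, and the first of each gene is shown because the members share this unit and differ in how often they hold it. Each line gives 57 bases of the coding strand, from the R64 genome of RefSeq. The pattern searched, in frame and on the coding strand only, was a CAN codon, any 2 codons, and then GA with any base after it, GGN and CAN, which can encode the repeat's conserved core. Capitals mark its fixed letters. The stretches lie at chrX:122688-122744 for CIS3, chrXI:144611-144667 for PIR3, chrXI:142559-142615 for PIR1 and chrX:120674-120730 for HSP150.
CIS3: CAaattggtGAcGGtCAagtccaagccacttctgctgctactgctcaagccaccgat
PIR3: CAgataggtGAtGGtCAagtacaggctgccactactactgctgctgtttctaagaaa
PIR1: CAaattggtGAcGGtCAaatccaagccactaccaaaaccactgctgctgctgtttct
HSP150: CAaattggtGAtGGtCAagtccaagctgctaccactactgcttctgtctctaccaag

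CIS3 held 1 match of the pattern in 684 coding bases, PIR3 held 8 in 978, PIR1 held 8 in 1026 and HSP150 held 11 in 1242. PIR5 held 4 in 864. Among 6021 open reading frames, only HSP150, PIR1, PIR3 and PIR5 held at least 2 matches, and 49, CIS3 among them, held 1. Successive matches were 51 to 78 bases apart in PIR1, PIR3 and HSP150. These counts are those of the reference genome, and the annotation says that the length of PIR3 differs between strains, so those of w303 were not examined.

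**Figure D1:**
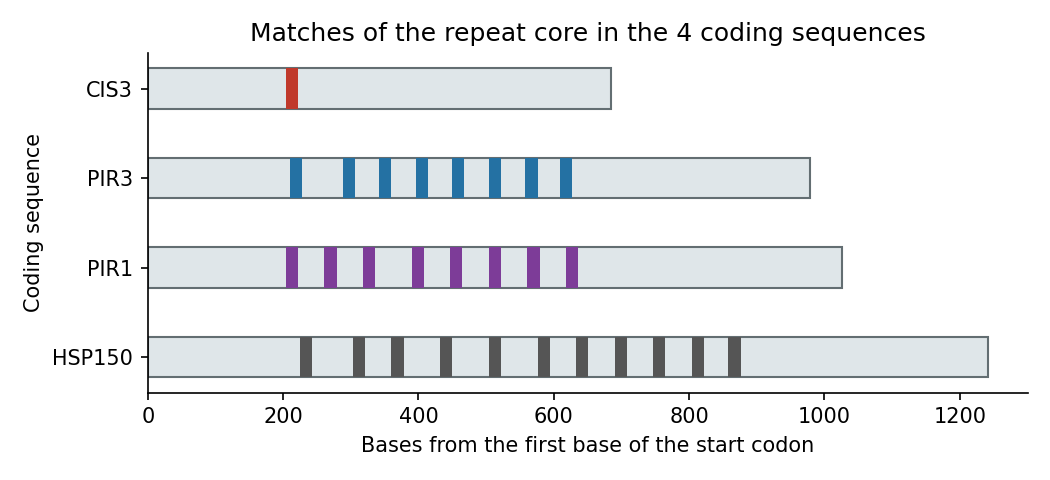
Coding sequences of CIS3, PIR3, PIR1 and HSP150 drawn to scale in bases from the first base of the start codon, with a coloured bar for each match of the repeat core. CIS3 has 1 match, PIR3 and PIR1 have 8 each, and HSP150 has 11.

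The coding sequences are alike enough to bear on read counting. Over aligned bases, PIR1 and HSP150 were 82.5% identical, PIR1 and PIR3 79.8%, CIS3 and HSP150 79.4%, and PIR3 and HSP150 79.2%. The longest identical run was 81 bases for PIR1 and PIR3 and 65 bases for CIS3 and HSP150. Of all 50-base windows, 10.8% in PIR3, 7.38% in HSP150, 7.16% in PIR1 and 2.52% in CIS3 were not unique. Such a window occurred at more than 1 place in the genome, which can be within the same gene. These shares therefore do not measure overlap with other members alone. Sought over whole coding sequences without alignment, the longest identical run of HSP150 was 26 bases with PIR1 and 20 bases with PIR3, each shorter than a 50-base window. How the authors treated reads that match several genes is not given in the sources used here, so part of a value could belong to another member. The size of that part was not measured, and the window shares do not bound it where levels differ. In T1, HSP150 had 63335 and 67850 recovered fragments, against 1651 and 2037 for CIS3, with which it shares the run of 65 bases.

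Levels are in TPM, a transcript abundance that corrects for length and so can be compared between genes, but is relative to each library's total. Fewer cells with a transcript and less of it per cell cannot be told apart. HSP150 lay at 1689 and 1927 TPM in T1 replicates A and B, at 1558 and 1733 TPM in T2, and at 1947 and 1618 TPM in T3. The ranges of the 3 groups overlapped, and HSP150 was the highest member in every library. PIR3 lay at 560.2 and 496.2 TPM in T1, at 949.4 and 1021 TPM in T2, and at 1461 and 1247 TPM in T3. Each group lay above the one before it without overlap, a pattern that 20.2% of the 6046 genes tested also showed. PIR1 lay at 161.5 and 240.5 TPM in T1, at 238.8 and 262 TPM in T2, and at 506.2 and 472.1 TPM in T3. Its T3 libraries stood above all others, while the higher T1 library and the lower T2 library were nearly level. CIS3 lay at 79.96 and 105.1 TPM in T1, at 322.6 and 352 TPM in T2, and at 966.8 and 873.8 TPM in T3. For CIS3, too, no group overlapped another, and the groups ascended from T1 to T3.

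**Figure D2:**
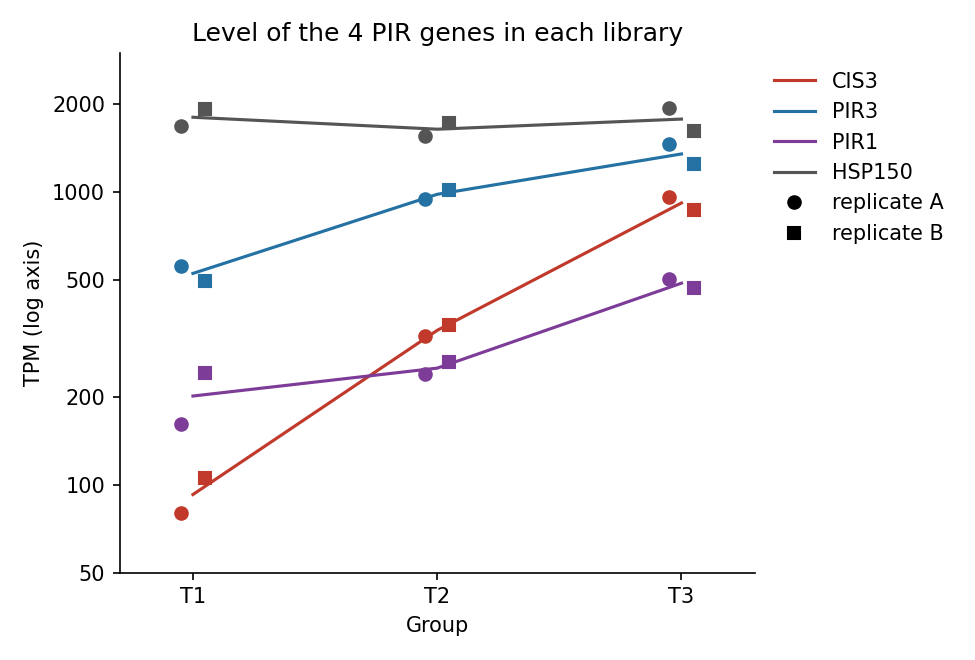
TPM of the 4 PIR genes on a log axis in groups T1, T2 and T3. Circles are replicate A, squares are replicate B and lines join group means (n = 2). The HSP150 line stays near its starting level, PIR3 and PIR1 climb, and CIS3 crosses above PIR1 between T1 and T2.

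The order of levels from the top was HSP150, PIR3, PIR1, CIS3 in T1 and HSP150, PIR3, CIS3, PIR1 in T2 and T3. Within each group, neighbours in that order did not overlap between libraries. Ranked among 5971 open reading frames by group mean, CIS3 stood at place 1331 in T1, 441 in T2 and 214 in T3. HSP150 stood at 133, 134 and 114, PIR3 at 291, 201 and 143, and PIR1 at 653, 560 and 351. Fragment counts recovered from the TPM values ran from 1651 to 18679 per library for CIS3 and from 5001 to 67850 for the other members, so counting error was small. The T1 replicates of PIR1 differed by 0.57 on the log2 scale, against a counting SD of 0.0267, and the T1 replicates of CIS3 by 0.39, against 0.0478.

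T3 was set against T1 to ask how levels differed between the outermost groups. CIS3 rose 9.93-fold, to 920.3 ± 65.7 TPM in T3 against 92.5 ± 17.7 TPM in T1 (SD, n = 2 each; log2 change 3.31, SE 0.12, limma adjusted p = 3.06e-10). Ordered from the largest rise down, it ranked 1 among the 6046 genes tested. PIR3 rose 2.56-fold, to 1354 ± 152 TPM in T3 against 528.2 ± 45.3 TPM in T1 (log2 change 1.35, SE 0.09, limma adjusted p = 9.63e-08). PIR1 rose 2.47-fold, to 489.1 ± 24.1 TPM in T3 against 201 ± 55.9 TPM in T1 (log2 change 1.31, SE 0.14, limma adjusted p = 5.25e-06). HSP150 averaged 1782 ± 233 TPM in T3 and 1808 ± 168 TPM in T1 and did not pass the test (log2 change -0.024, 95% interval -0.23 to 0.18, limma adjusted p = 0.859). That interval spans folds from 0.851 to 1.14. Thus 3 of 4 members rose, where 31% of all genes tested rose and 16.9% fell. The T3 libraries of these 3 members stood above both T1 libraries, as did those of 45.7% of genes. Of all genes called, 64.7% were higher in T3, and this share was 50.4% with median-of-ratios scaling and 45.2% with quantile scaling.

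**Figure D3:**
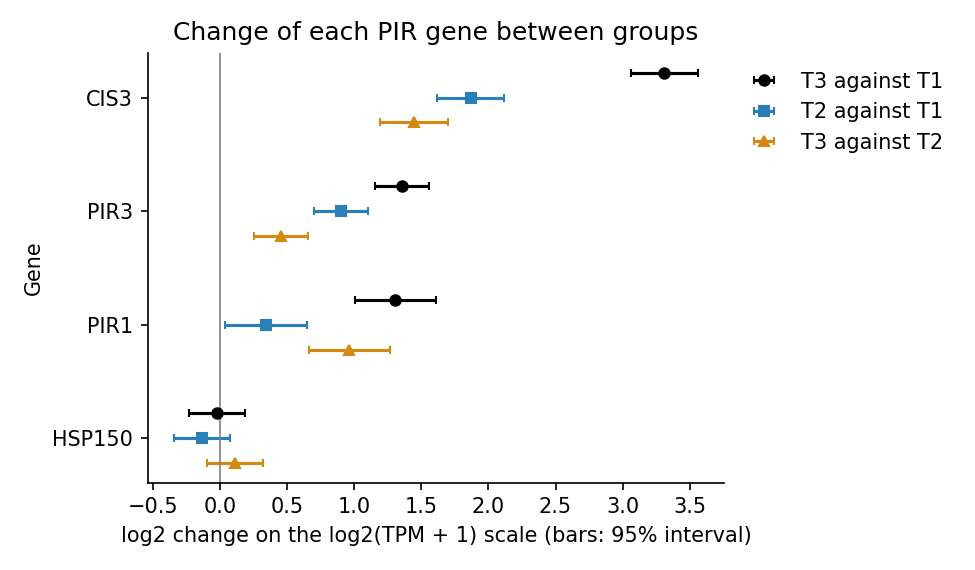
Log2 change of each PIR gene, on the log2(TPM + 1) scale, for T3 against T1 (circles), T2 against T1 (squares) and T3 against T2 (triangles), with 95% intervals from limma. The 3 intervals of HSP150 include 0 and those of CIS3, PIR3 and PIR1 lie above it. The intervals are not adjusted for the number of genes, and that of PIR1 for T2 against T1 starts at 0.04.

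T2 was set against T1 for the first step. CIS3 rose 3.65-fold in T2 (log2 change 1.87, SE 0.12, limma adjusted p = 3.16e-07) and PIR3 rose 1.87-fold (log2 change 0.90, SE 0.09, limma adjusted p = 3.31e-05). PIR1 averaged 250.4 ± 16.4 TPM in T2 and 201 ± 55.9 TPM in T1, a log2 change of 0.34 with a 95% interval of 0.04 to 0.65 (limma adjusted p = 0.113). Without T1 replicate B, the higher of the T1 libraries, the PIR1 change was 0.63 and passed the test (limma adjusted p = 1.62e-05), and without T1 replicate A it was 0.056 (limma adjusted p = 0.814). In both fits T1 is a single library assumed to vary like T2 and T3, so the spread between the T1 libraries, 0.57 for PIR1, does not enter. It also passed where only genes averaging 10 TPM or more were tested (limma adjusted p = 0.0439). HSP150 averaged 1646 ± 123 TPM in T2 and had a log2 change of -0.13 (95% interval -0.34 to 0.07, limma adjusted p = 0.377). The count of 2 rises and 0 falls among 4 members, by limma, stands beside 11.9% of all genes that rose and 6.1% that fell. At an unadjusted p under 0.05, 3 members were higher in T2 and 0 lower, where 19.2% of all genes were higher and 12.2% lower. Both T2 libraries lay above both T1 libraries for CIS3 and PIR3, as for 32.3% of genes.

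T3 was then set against T2 for the second step. CIS3 rose 2.72-fold (log2 change 1.44, SE 0.12, limma adjusted p = 7.17e-06), PIR1 rose 1.95-fold (log2 change 0.96, SE 0.14, limma adjusted p = 0.000384) and PIR3 rose 1.37-fold (log2 change 0.45, SE 0.09, limma adjusted p = 0.0038). HSP150 had a log2 change of 0.11 (95% interval -0.10 to 0.32, limma adjusted p = 0.448). Rises in 3 of 4 members stand beside 15.8% of all genes tested that rose and 6.09% that fell. For these 3, both T3 libraries lay above both T2 libraries, as for 40.9% of genes. Without T3 replicate A the PIR3 change was 0.34 and missed the threshold (limma adjusted p = 0.0502). With no filter on low values the PIR1 and PIR3 calls missed it too (limma adjusted p = 0.0547 and 0.0682). The comparisons share libraries and are not independent of each other.

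The difference between the steps, T3 minus T2 less T2 minus T1, was tested in the same fit, in which 1.08% of genes passed. It was 0.62 (SE 0.24) for PIR1, -0.45 (SE 0.16) for PIR3, -0.42 (SE 0.20) for CIS3 and 0.25 (SE 0.17) for HSP150, all on the log2 scale. By limma 0 of the 4 passed the test after adjustment (adjusted p = 0.302, 0.266, 0.405 and 0.578), and 2, PIR1 and PIR3, had an unadjusted p under 0.05, as did 12.9% of all genes. Without T1 replicate A the difference was 0.91 for PIR1 (limma adjusted p = 0.000191) and -0.53 for PIR3 (limma adjusted p = 0.0359). Without T1 replicate B it was -0.62 for CIS3 (limma adjusted p = 0.0289). These fits, too, rest on a single T1 library assumed to vary like T2 and T3, and their p-values leave out the spread within T1. With both T1 libraries no member passed.

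Ratios between members within a library need no scaling across libraries. CIS3 stood at 0.0473 and 0.0545 of the HSP150 level in the T1 libraries, at 0.207 and 0.203 in T2, and at 0.497 and 0.54 in T3. Its ratio to PIR1 was 0.495 and 0.437 in T1, 1.35 and 1.34 in T2, and 1.91 and 1.85 in T3, so the order of these members turned between T1 and T2. On the log2(TPM + 1) scale, the CIS3 ratio was higher in T3 than in T1 by 3.34 against HSP150, by 2.01 against PIR1 and by 1.96 against PIR3. The T3 and T1 libraries did not overlap in any of these ratios, and each gave p = 0.33 in a two-sided exact permutation test, the smallest p that 2 libraries against 2 allow. The ratio of PIR3 to PIR1 was 2.89 and 2.64 in T3, and 3.47 and 2.06 in T1, so for these divergent neighbours the groups overlapped (exact permutation p = 1). In T2 that ratio was 3.98 and 3.90, above all other libraries. In all, 6 pairs of members were compared.

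The summed level of the 4 genes was 2491 and 2769 TPM in T1, 3069 and 3368 TPM in T2, and 4881 and 4211 TPM in T3. The mean sum in T3 was 1.73 times that in T1, and its gain of 1916 TPM came to 43.2% from CIS3, 43.1% from PIR3 and 15% from PIR1. HSP150 made up 68.7 ± 1.26% of the sum in T1, 51.1 ± 0.480% in T2 and 39.2 ± 1.03% in T3 (SD, n = 2 each). CIS3 made up 3.50 ± 0.413% in T1, 10.5 ± 0.0427% in T2 and 20.3 ± 0.669% in T3. PIR3 made up 20.2 ± 3.23%, 30.6 ± 0.438% and 29.8 ± 0.230% in T1, T2 and T3. HSP150 was thus the main member throughout but held a smaller share in T2 and T3 than in T1.

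**Figure D4:**
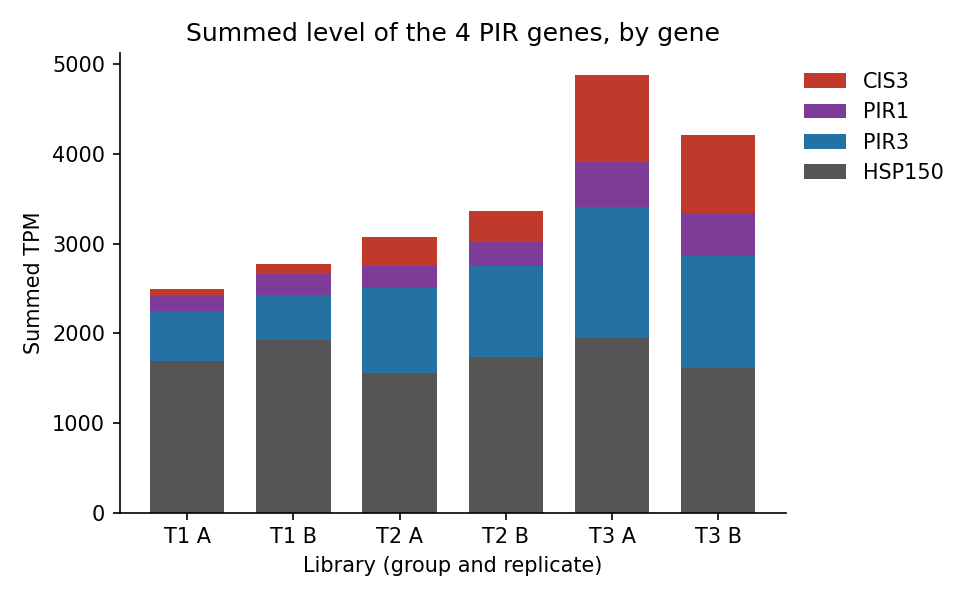
Summed TPM of the 4 PIR genes in each library, stacked by gene, with libraries ordered T1 to T3. The HSP150 block stays between 1558 and 1947 TPM, while the CIS3 block at the top grows to 966.8 TPM in T3 replicate A.

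PIR5 was far lower than the members, at 3.41 and 3.27 TPM in T1, 3.01 and 5.31 TPM in T2, and 7.86 and 6.70 TPM in T3, from 68 to 181 fragments per library. It rose in T3 against T1 (log2 change 0.93, SE 0.21, limma adjusted p = 0.00276). For the annotated paralogs PIR3 and HSP150, the log2 changes in that comparison were 1.35 and -0.024. For the other such pair, PIR1 and PIR5, they were 1.31 and 0.93. At its low level the PIR5 change depends on the pseudocount. It was 1.10 with a pseudocount of 0.1 and 0.56 with 5, where PIR1 had 1.31 and 1.29.

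The 300 bases before each start codon were searched for known regulatory sequences of yeast, and the windows are shown to set the unlike changes beside the DNA that precedes each gene. Searches covered both strands and used the consensus of Rlm1 by its name, ACCAGC for Swi5, AGGGG for the stress response element, and CNCGAAA for the G1 factor SBF. Sequences are from the R64 genome of RefSeq, on the gene's strand, at chrX:122949-123248 for CIS3, chrXI:144101-144400 for PIR3, chrXI:142820-143119 for PIR1 and chrX:120149-120448 for HSP150. Capitals mark matches, which read as the reverse complement where the site is on the other strand.
CIS3: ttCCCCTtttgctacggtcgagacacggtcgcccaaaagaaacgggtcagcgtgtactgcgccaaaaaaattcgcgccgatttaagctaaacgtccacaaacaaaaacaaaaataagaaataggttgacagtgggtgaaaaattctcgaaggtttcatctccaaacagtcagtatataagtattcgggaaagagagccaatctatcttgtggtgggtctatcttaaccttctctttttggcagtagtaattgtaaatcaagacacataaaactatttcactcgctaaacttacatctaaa
PIR3: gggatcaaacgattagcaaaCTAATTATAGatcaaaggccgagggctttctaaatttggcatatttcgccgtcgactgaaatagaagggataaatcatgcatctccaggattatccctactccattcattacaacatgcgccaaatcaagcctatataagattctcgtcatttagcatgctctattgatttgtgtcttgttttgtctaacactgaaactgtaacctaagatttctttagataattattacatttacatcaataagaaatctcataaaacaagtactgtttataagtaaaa
PIR1: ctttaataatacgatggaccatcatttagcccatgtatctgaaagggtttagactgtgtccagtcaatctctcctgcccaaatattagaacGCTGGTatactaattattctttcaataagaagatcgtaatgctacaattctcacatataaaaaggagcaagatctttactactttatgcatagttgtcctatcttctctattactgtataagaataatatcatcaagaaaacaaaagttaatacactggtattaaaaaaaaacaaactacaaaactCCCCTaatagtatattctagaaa
HSP150: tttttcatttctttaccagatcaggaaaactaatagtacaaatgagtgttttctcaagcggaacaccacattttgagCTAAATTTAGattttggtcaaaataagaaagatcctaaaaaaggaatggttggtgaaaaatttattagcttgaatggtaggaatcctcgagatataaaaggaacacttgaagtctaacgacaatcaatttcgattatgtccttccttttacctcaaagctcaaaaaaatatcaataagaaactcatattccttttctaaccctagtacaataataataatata

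An Rlm1 match lay 280 to 271 bases before the start codon of PIR3 and 223 to 214 bases before that of HSP150. Of all 6020 windows of this length, 1.18% held such a match. PIR3 rose and HSP150 did not pass the test, so the match was present in members of both kinds. CIS3 and PIR1, which also rose, had no such match in their windows. The Swi5 letters lay 209 to 204 bases before PIR1 and are found in 6.83% of windows. The stress element letters lay 298 to 294 bases before CIS3 and 23 to 19 bases before PIR1, and are found in 22.2% of windows. No window of the 4 held the SBF letters, which 14.5% of windows hold. A match of letters is not a site of binding, and the windows leave out most of the 1581 bases between PIR1 and PIR3.

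Genes known to respond to Rlm1, without the members, form a list of 14, of which 10 rose and 1 fell in T3 against T1, or 2 fell with either rescaling. Over all genes tested, 31% rose and 16.9% fell in this comparison. Their median log2 change was 0.43, beside 0.09 over all genes tested. NCW2, a GPI-anchored protein of wall remodelling, rose to 293.2 and 285.8 TPM in T3, against 67.8 and 85.9 TPM in T1 (log2 change 1.91). PST1, a GPI-anchored wall protein, rose to 691.8 and 642.1 TPM in T3, against 191.9 and 231.3 TPM in T1 (log2 change 1.66). SED1, an abundant structural mannoprotein, and YPS1, an aspartic protease at the cell surface, had log2 changes of 0.72 and 0.81 and rose. CWP1, another wall mannoprotein, fell (log2 change -0.42). FKS2, listed in the table as GSC2, encodes the alternative glucan synthase subunit and lay at 26 and 25.4 TPM in T3 and 22.1 and 21.4 TPM in T1 (limma adjusted p = 0.0763).

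Of 23 signalling genes of the cell wall integrity pathway, 7 rose in T3 against T1 and by limma 0 fell, with 0 falls at an unadjusted p under 0.05 as well. That count of rises is near the 31% of all genes, where 16.9% fell, and the median log2 change was 0.12, beside 0.09 over all genes. With either rescaling, 2 fell. PTP2, a phosphatase of MAP kinases, and ROM1, an exchange factor of Rho1, rose with log2 changes of 0.98 and 0.96. SLT2, the MAP kinase of the pathway and also in the Rlm1 list, rose to 237.1 and 219.2 TPM in T3, against 169.8 and 171.9 TPM in T1 (log2 change 0.41). RLM1 itself lay at 44.4 and 41.9 TPM in T3 and 40.5 and 40 TPM in T1 (limma adjusted p = 0.432). RHO1, the most abundant of the list, and SWI4, the DNA-binding part of SBF, had log2 changes of 0.19 and 0.26 (limma adjusted p = 0.0663 and 0.079). SWI5 was low, at a mean level of 2.51 TPM over the libraries, and did not pass the test (log2 change 0.34, limma adjusted p = 0.231). Transcript levels do not show the activity of a kinase or factor.

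Among 23 genes of GPI-anchored wall mannoproteins, 9 rose and 3 fell in T3 against T1, with a median log2 change of 0.27. These counts are not far from the 31% of all genes that rose and the 16.9% that fell. CWP2, the most abundant, rose to 8738 and 8765 TPM in T3, against 3107 and 2810 TPM in T1 (log2 change 1.57). TIP1 fell (log2 change -0.55), and EGT2, a gene of cell separation, fell to 2.96 and 3.18 TPM in T3, against 11.4 and 32.7 TPM in T1 (log2 change -2.33). Its size rests on the T1 libraries: the change was -3.05 without T1 replicate A and -1.61 without T1 replicate B. The PIR sum came to 18.5 and 20.6% of the sum of these 23 genes in T1, 17.2 and 18.5% in T2, and 20.7 and 18.9% in T3. Values of T1 and T3 overlapped. T2 replicate A, at 17.2%, lay under all of them, and T2 replicate B, at 18.5%, lay level with the lowest.

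Of 21 genes for the synthesis and remodelling of glucan and chitin, 11 rose and 2 fell in T3 against T1, beside 31% and 16.9% of all genes, with a median log2 change of 0.31. The count of rises was 7 without T1 replicate A, and that of falls was 1 without T1 replicate B. CRH1, a chitin transglycosylase, and SCW10, a glucanase-like wall protein, rose with log2 changes of 1.47 and 1.23, and BGL2, an abundant glucanase, rose with 0.31. UTR2, a relative of CRH1, and GAS1, a glucan-elongating enzyme, fell with log2 changes of -0.65 and -0.36. BGL2 missed the threshold without T1 replicate A (0.25, limma adjusted p = 0.0502), and GAS1 without T1 replicate B (-0.28, limma adjusted p = 0.0592). With either rescaling 4 fell. Of 11 genes for Kex2 and the mannosyltransferases of the secretory pathway, 1 rose and 3 fell, beside 31% and 16.9% of all genes, with a median log2 change of -0.21. The falls numbered 6 without T1 replicate A and with median-of-ratios scaling, and 7 with quantile scaling. MNN1, which adds terminal mannose, rose to 234 and 238.8 TPM in T3, against 74.8 and 81.6 TPM in T1 (log2 change 1.59). KTR1, a mannosyltransferase of the Golgi, and PMT2, which starts O-mannosylation, fell with log2 changes of -0.76 and -0.60. KRE2, a mannosyltransferase and the most abundant of these, lay at 173.3 and 186.1 TPM in T3 and 166.3 and 180.4 TPM in T1 (limma adjusted p = 0.695). KEX2 lay at 31.8 and 34.5 TPM in T3 and 33.1 and 35.5 TPM in T1 (limma adjusted p = 0.735). The lists share genes and are not separate results.

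**Figure D5:**
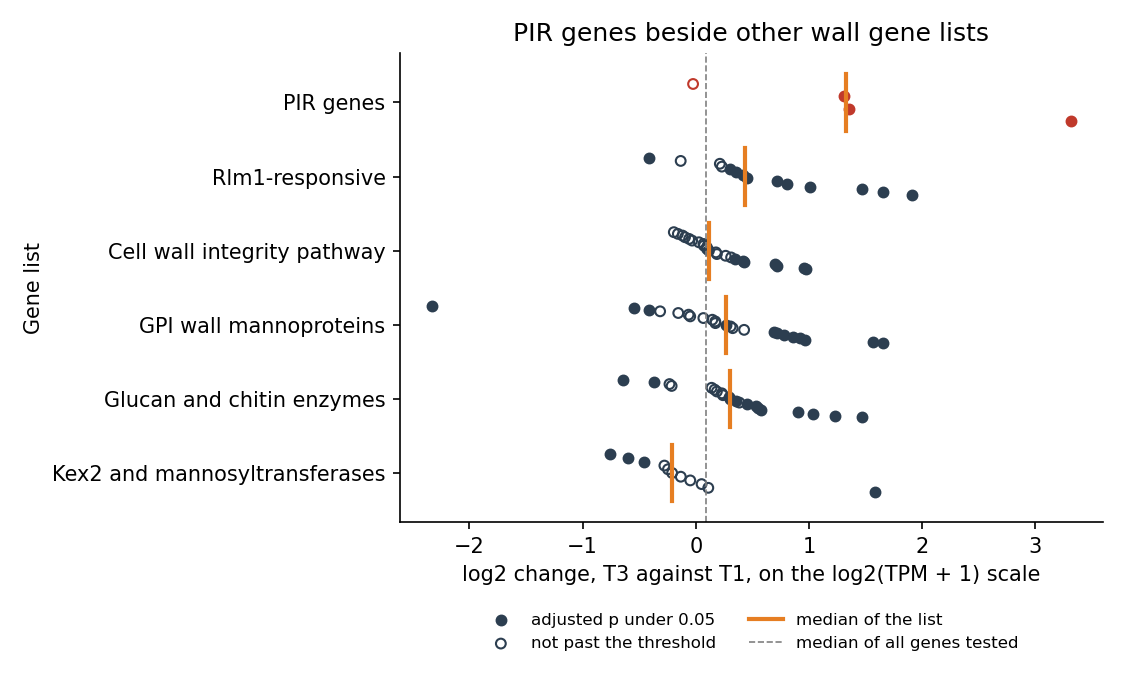
Log2 change in T3 against T1, on the log2(TPM + 1) scale, of PIR1, PIR3, CIS3 and HSP150 and of each gene in 5 other lists. Filled points have a limma adjusted p under 0.05, open points do not, orange bars are list medians and the dashed line is the median of all genes tested, at 0.09. CIS3 is the rightmost point at 3.31 and HSP150 is the open PIR point near 0.

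The genes with the profile most like each member were found by the Euclidean distance between centred log2(TPM + 1) values over the 6 libraries, among 5148 genes averaging 10 TPM or more. Nearest to CIS3 were GPG1, a proposed G protein subunit, at 0.326, BIO4, of biotin synthesis, at 0.479, and RNR1, the large subunit of ribonucleotide reductase, at 0.591, with the tenth gene already at 1.01. Nearest to PIR3 were YNK1, a nucleoside diphosphate kinase, at 0.174, YMR050C, a retrotransposon gene with near-identical copies and thus uncertain, at 0.211, and PNC1, the nicotinamidase, at 0.221. Nearest to PIR1 were CAR1, the arginase, at 0.259, ASH1, a repressor of mating-type switching in daughter cells, at 0.281 and YNL058C at 0.293. Nearest to HSP150 were RFC1, a subunit of the clamp loader of replication, at 0.0493, RAX1, of bud site selection, at 0.0518, and STE5, the scaffold of the pheromone MAP kinases, at 0.0622. When distances were taken over the 3 group means, the nearest 3 shared 2 genes with these for CIS3, 1 for PIR3 and 0 for PIR1 and HSP150, so the order among near genes is not firm. Between members, PIR1 and PIR3 lay 0.818 apart, and CIS3 and HSP150 lay 3.36 apart, the closest and the farthest pair of the 4.

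Over the whole series, recovered totals were 17865474 to 23522744 fragments on open reading frames per library. The 5 genes known as alpha-cell genes lay at 19.5 TPM or more in every library, and the 7 known as a-cell genes at 0.77 to 11.2 TPM. The alpha-cell genes summed to 2220 and 2161 TPM in T3, against 4085 and 4132 TPM in T1, and all 5 fell, where 16.9% of all genes did. The a-cell genes summed to 33 and 37.1 TPM in T3, against 28.1 and 30.9 TPM in T1. Of these 7, by limma 2 rose and 0 fell, beside 31% and 16.9% of all genes.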

How the data were processed

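Poly(A) RNA of 6 libraries was measured by paired-end sequencing. Per the submitters' processing notes, STAR 2.5.2b, featureCounts and Subread 1.5.2 were used with genome build R64; their settings, strand handling and treatment of multiply matching reads are not given in the sources used here. The deposited values are TPM, and each library's values sum to 1000000. TPM are relative values, so a gene's share depends on all others. The entry without a gene name was left out.

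Genes averaging under 1 TPM were dropped, which left 6046, and 1 was added before taking log2. A single limma 3.58.1 model in R 4.3.3 (lmFit, contrasts.fit, eBayes with an abundance trend) held the 3 groups and all 6 libraries. It had 3 residual degrees of freedom and a prior of 10.7. P-values are two-sided, were adjusted by Benjamini and Hochberg over every gene kept, and were called at 0.05. "Rose" and "fell" are used of genes past it. Folds are on the log2(TPM + 1) scale. The fit was tested on simulated data. Fragments were recovered by multiplying TPM by coding length and the factor that makes low values whole. Of open reading frames with at most 500 fragments, 99.6 to 99.8% lay within 0.1 of a whole number. PCR copies cannot be removed, and counting error covers sampling only.

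The members and lists were chosen with earlier results of these data known. Named genes are the members and PIR5; of each list the most abundant gene and the 2 largest rises and falls past the threshold in T3 against T1; RLM1, SLT2, SWI4, SWI5, KEX2, YPS1, FKS2 and PST1 by name; and the 3 nearest profiles of each member. Part of what that rule names is not reported here. Coding identity came from global alignments in Biopython 1.88. Python 3.11.15, pandas 2.3.3, NumPy 2.4.6, SciPy 1.17.1 and matplotlib 3.10.9 were used. Alternatives covered pseudocounts of 0.1 and 5, filters, scaling, the abundance trend, the samples in the fit, a replicate block and leaving out each library.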

Additional observations from a re-analysis of the deposited data

How the results depend on the processing

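The calls of CIS3, PIR3 and PIR1 in T3 against T1, and of CIS3 and PIR3 in T2 against T1 and CIS3 in T3 against T2, held under all 15 alternatives, with CIS3 between 3.12 and 3.51 on the log2 scale in T3 against T1. The HSP150 change in T3 against T1, which was called in no alternative, was 0.16 under quantile scaling, which moves the median of all genes by -0.13, and ran from -0.16 to 0.11 when a library was left out; in T3 against T2 it ran from -0.023 to 0.24. With no filter on low values, the changes of PIR1 (0.96) and PIR3 (0.45) in T3 against T2 lost their calls; among genes of at least 10 TPM the PIR1 change in T2 against T1 (0.34) gained one. The cause was not tested. Without a library, its group is a single library assumed to vary like the others. Leaving out a library gave ranges of 0.056 to 0.63 for PIR1 in T2 against T1 and 0.34 to 0.57 for PIR3 in T3 against T2, and, for the difference between steps, 0.34 to 0.91 for PIR1, -0.56 to -0.33 for PIR3 and -0.62 to -0.23 for CIS3. PIR5 ran from -0.11 to 0.54 in T2 against T1, from 0.39 to 1.04 in T3 against T2 and from -0.15 to 1.16 for the steps.

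Over all genes, 1877 rose and 1024 fell in T3 against T1, with 1563 falls under median-of-ratios scaling and 1722 under quantile scaling. In T2 against T1, 722 rose and 369 fell; the counts were 411 and 133 with no filter, falls were 613 under quantile scaling and 222 without the abundance trend, and leaving out a library gave 407 to 679 rises and 153 to 443 falls. In T3 against T2, 957 rose and 368 fell; the counts were 468 and 159 with no filter, falls were 683 under median-of-ratios scaling, 730 under quantile scaling and 205 without the trend, and leaving out a library gave 465 to 1189 rises and 171 to 492 falls. The share of rises among calls was 66.2% in T2 against T1 and 72.2% in T3 against T2, and 51.8% and 49.2% under quantile scaling. For the difference between steps, 46 genes were positive and 19 negative, against 79 and 34 among genes of at least 10 TPM, 12 and 8 under median-of-ratios scaling, 5 and 5 under quantile scaling, 9 and 6 without the trend, and 0 and 1 by limma with no filter (430 and 333 at an unadjusted p under 0.05). Leaving out a library gave 12 to 171 positive and 6 to 81 negative genes.

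The letters A and B are not known to pair libraries: the correlation over genes of the A minus B difference was 0.132 for T1 and T2, -0.0578 for T1 and T3 and -0.15 for T2 and T3. With a replicate block the step count was 30 positive genes, and no call of a member changed. In this balanced design the block leaves each estimate as it was (3.31 for CIS3 in T3 against T1) and alters its error alone. Of the list counts under the alternatives, 139 stayed within 1.5 times and 11 did not. For glucan and chitin genes, falls numbered 4 after either rescaling. Fragments numbered 68 to 181 per library for PIR5 and at least 1651 for each member, so counting error bears mostly on PIR5.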
